A study of Homo sapiens with 4 samples.

Results

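The metallothionein genes and the gene of metal regulatory transcription factor 1 (MTF1) were followed in PANC-1, an established cell line from a human pancreatic carcinoma, with and without knockdown of SIRT1. Their 9 genes, namely MT2A, MT1A, MT1E, MT1F, MT1G, MT1H, MT1M, MT1X and MTF1, were taken by symbol from the 16878 genes of the expression tables. All 9 were listed in every library, and 7 of them were among the 12191 genes tested, which averaged 1 FPKM or more across libraries. FPKM counts the fragments of a gene relative to the length of its transcript and to the mapped fragments of the library, so it is a level per length that can be compared between genes.

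The study holds 4 RNA-seq libraries in 2 groups. The 2 Control libraries came from PANC-1 cells transfected with a control whose reagent the labels do not describe further, and the 2 siSIRT1 libraries from PANC-1 cells transfected with small interfering RNA (siRNA) against SIRT1, a protein deacetylase that needs NAD. RNA was taken 48 h after transfection in both groups, and no label gives a metal, a chelator or a drug. A single siRNA sequence in a single cell line was used, so an effect of SIRT1 loss and an off-target effect of that siRNA cannot be told apart here. Nothing says that libraries of a group came from separate cultures, so p-values measure only the spread between these libraries, which may be technical. In bulk RNA, fewer cells of a kind and less RNA per cell cannot be told apart either.

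Metallothioneins are small, cysteine-rich proteins that bind zinc, copper and cadmium through clusters of thiolate groups. They buffer zinc inside the cell, protect it from toxic metals and react with oxidants. MTF1 is a zinc finger transcription factor that senses free zinc, binds metal response elements in promoters and induces the metallothionein genes and SLC30A1, the zinc exporter of the plasma membrane. MT2A and the MT1 genes are neighbours on chromosome 16, where MT1 stands for a group of close copies, and MTF1 lies on chromosome 1. Glucocorticoids, cytokines and oxidative stress are also known to raise metallothionein transcripts.

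SIRT1 itself had FPKM values of 10.5 and 10.3 in Control, then 1.80 and 2.05 in siSIRT1 (log2 fold change -1.96, limma adjusted p = 1.33e-05). The depth, estimated from the steps between low values, came to 8940000 and 9120000 reads for Control against 8700000 and 9000000 reads for siSIRT1. Of the 12191 genes tested, 4521 passed an adjusted p of 0.05, 1591 lower and 2930 higher in siSIRT1, and the median log2 fold change of all genes tested was 0.07. Markers of simple epithelial cells were present in all 4 libraries, with 5 of 5 genes at or above 1 FPKM, while 14 markers of endothelial, acinar, endocrine and hepatocyte cells gave no gene above 0.75 FPKM among the 8 that were listed. Leukocyte genes summed to 6.32 to 6.71 FPKM in Control and 4.46 to 5.42 FPKM in siSIRT1. Of 4 fibroblast genes, the collagens COL1A1 and COL3A1 took the sum from 22.3 to 22.9 FPKM in Control up to 146 to 150 FPKM in siSIRT1 while DCN and LUM stayed under 1 FPKM, and the part of this in the results on metallothioneins was not tested.

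The coding sequences are shown first because their likeness bears on how reads can be assigned among the copies. They come from GENCODE release 44 mapped to GRCh37, and capitals mark the bases that differ from MT2A after alignment. Each is 183 bases long and holds 20 cysteine codons among 61 codons.
MT2A coding sequence: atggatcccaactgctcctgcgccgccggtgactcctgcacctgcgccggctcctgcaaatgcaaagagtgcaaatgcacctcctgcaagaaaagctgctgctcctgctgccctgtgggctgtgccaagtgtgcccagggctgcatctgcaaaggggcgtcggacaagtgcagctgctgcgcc
MT1E coding sequence: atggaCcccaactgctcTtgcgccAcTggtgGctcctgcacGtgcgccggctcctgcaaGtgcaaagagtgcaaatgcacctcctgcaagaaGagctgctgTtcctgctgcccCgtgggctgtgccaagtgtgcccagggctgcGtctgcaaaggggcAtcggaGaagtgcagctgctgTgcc
MT1X coding sequence: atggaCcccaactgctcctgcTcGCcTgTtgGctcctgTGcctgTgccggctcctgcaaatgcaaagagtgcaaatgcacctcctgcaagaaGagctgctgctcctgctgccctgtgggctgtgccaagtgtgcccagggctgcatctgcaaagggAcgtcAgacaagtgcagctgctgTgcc
MT1E and MT1X each differ from MT2A at 14 aligned positions. Over the 28 pairs of the 8 metallothionein genes, coding identity ran from 88.5% to 94.5%. The MT1 gene nearest to MT2A was MT1G at 93.5%, which carries 1 extra codon.

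Promoters are shown for the members whose transcripts changed, where the promoter table holds them. In the 250 bases before the start of MT2A and of MT1X (RefSeq, GRCh38.p14, plus strand of chromosome 16), capitals mark matches to the core of the metal response element, spelled TGCACNC or TGCGCNC and searched on both strands.
MT2A upstream sequence, chr16:56608334-56608583: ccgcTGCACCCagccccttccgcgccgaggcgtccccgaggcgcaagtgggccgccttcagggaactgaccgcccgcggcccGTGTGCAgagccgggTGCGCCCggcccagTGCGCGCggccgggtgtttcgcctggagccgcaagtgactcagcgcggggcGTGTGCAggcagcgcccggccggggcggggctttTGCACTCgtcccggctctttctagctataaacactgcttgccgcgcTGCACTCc
MT1X upstream sequence, chr16:56682220-56682469: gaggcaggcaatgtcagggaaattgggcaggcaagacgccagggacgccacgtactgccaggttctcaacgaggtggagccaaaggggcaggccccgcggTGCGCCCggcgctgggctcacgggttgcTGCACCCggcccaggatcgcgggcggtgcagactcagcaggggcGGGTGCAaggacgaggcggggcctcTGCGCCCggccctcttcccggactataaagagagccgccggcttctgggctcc
The counts were made over a window of 300 bases that also takes in the first 50 bases of the gene. MT2A held 8 matches in it and MT1X held 4. MT1H, whose transcript was barely detected, also held 8, and MTF1 held 0. Of 35116 promoters of the same length, 29.6% held at least 1 match, 0.601% held 4 or more and 0.0199% held 8 or more. SLC30A1 held 2 matches, a number that 8.6% of promoters reached. These are matches of letters and do not show that MTF1 was bound. Promoters of MT1A, MT1E, MT1F, MT1G and MT1M were not analysed here.

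Metallothionein transcripts were lower after SIRT1 knockdown. MT2A, by far the most abundant member, fell to 50.5% of its Control level, and MT1E, MT1X, MT1G and MT1A fell to 45.7%, 40.7%, 61.5% and 80.8% of theirs. MT1F and MTF1 did not pass the test, and MT1H and MT1M were too low to be tested. In numbers, 5 of the 7 members tested passed an adjusted p of 0.05 (limma, Benjamini-Hochberg), all 5 lower, which is 71.4%, beside 37.1% of all genes tested that passed in either direction and 13.1% that passed in the lower direction. No member passed in the higher direction, beside 24.0% of all genes tested. The median log2 fold change was -0.66 over the 7 members tested and -0.82 over the 6 metallothionein genes tested, beside 0.07 over all genes tested.

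**Figure D1:**
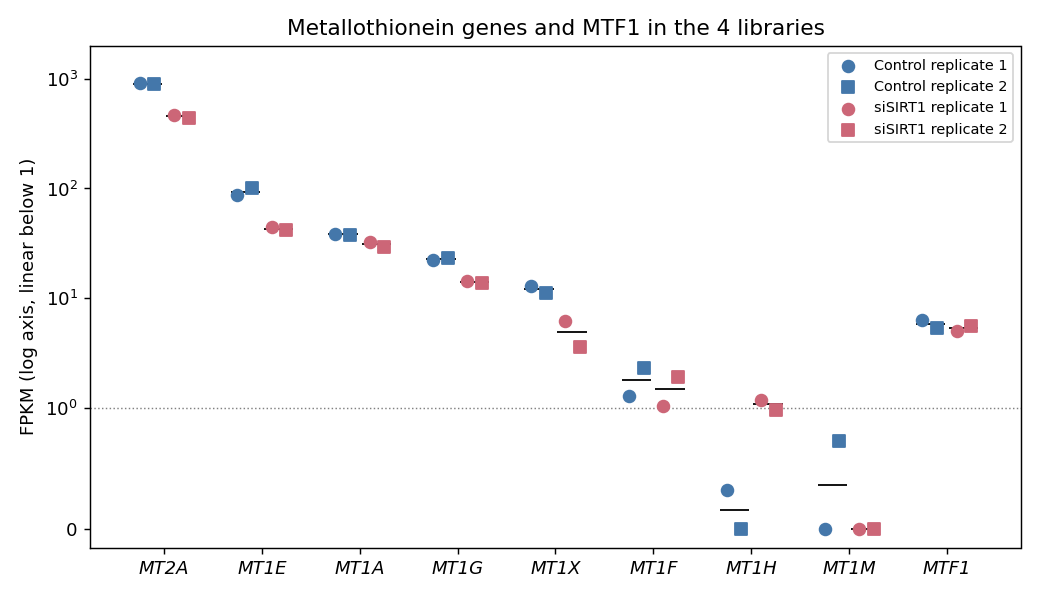
FPKM of each metallothionein gene and MTF1 in the 2 Control and the 2 siSIRT1 libraries, on an axis that is logarithmic above 1 FPKM and linear below, with 1 point per library and short bars at the group means. MT2A, MT1E, MT1A, MT1G and MT1X have both siSIRT1 points below both Control points, while the points of MTF1 and MT1F overlap and those of MT1H and MT1M lie near 0.

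MT2A (Entrez gene 4502, GRCh37 chromosome 16, 56642496 to 56643409, plus strand, 3 exons) encodes the single metallothionein of type 2, which most human tissues express. The Control libraries held it at 910.2 and 891.2 FPKM, the siSIRT1 libraries at 471.9 and 438.1 FPKM. Both siSIRT1 values lay below both Control values with a wide gap between the groups. Its mean of 901 ± 13.4 FPKM in Control became 455 ± 23.9 FPKM (SD, n = 2 each), and the log2 fold change was -0.98 (standard error 0.07, limma adjusted p = 2.65e-05). About 2612 and 2609 reads stood behind the Control values and 1318 and 1266 reads behind the siSIRT1 values, so MT2A rests on more reads than any other member. In Control it ranked 33rd by level among the genes tested, and 1.53% of the genes tested had a more negative log2 fold change.

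MT1E (Entrez gene 4493, chromosome 16, 56659387 to 56661024, plus strand) encodes a metallothionein of type 1 and was the highest of the MT1 genes. Its levels were 86.4 and 101 FPKM without the siRNA against SIRT1, and 44.2 and 41.5 FPKM with it. The groups were well apart, and the 2 siSIRT1 libraries were closer to each other than the 2 Control libraries were. From 93.8 ± 10.4 to 42.8 ± 1.94 FPKM (SD, n = 2), the log2 fold change was -1.11 (standard error 0.08, limma adjusted p = 4.06e-05). MT1E has transcript models that differ in length, which limits any estimate of its reads, and none is given.

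MT1A (Entrez gene 4489, chromosome 16, 56672578 to 56673999, plus strand) encodes another type 1 protein and changed least among the members that passed. Control libraries gave 38.5 and 37.9 FPKM, and siSIRT1 libraries gave 32.5 and 29.2 FPKM. The siSIRT1 values were lower without overlap, from about 109 reads in each Control library to 89 and 83 reads. Means of 38.2 ± 0.431 and 30.8 ± 2.35 FPKM (SD, n = 2 each) gave a log2 fold change of -0.30 (standard error 0.07, limma adjusted p = 0.0121). This call rested on both Control libraries. Without Control replicate 1 the adjusted p was 0.0904, and without Control replicate 2 it was 0.0697, at log2 fold changes of -0.29 and -0.31.

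MT1G (Entrez gene 4495, chromosome 16, 56700642 to 56701977) is the member of the cluster that is read from the minus strand. Both Control libraries, at 22.2 and 23.2 FPKM, exceeded both siSIRT1 libraries, at 14.3 and 13.6 FPKM. The spread within each group was small beside the gap between the groups. A change from 22.7 ± 0.714 to 13.9 ± 0.467 FPKM (SD, n = 2) gave a log2 fold change of -0.66 (standard error 0.08, limma adjusted p = 0.000355). It rests on about 65 and 70 Control reads against 41 and 40 siSIRT1 reads.

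MT1X (Entrez gene 4501, chromosome 16, 56716382 to 56718108, plus strand) is the last gene of the cluster on the plus strand. Control libraries read 12.9 and 11.2 FPKM where siSIRT1 libraries read 6.22 and 3.60 FPKM. All siSIRT1 values were below all Control values, but the 2 siSIRT1 libraries differed from each other more than those of any other member that passed, relative to their mean. Group means were 12.1 ± 1.2 and 4.91 ± 1.85 FPKM (SD, n = 2 each), and the log2 fold change was -1.18 (standard error 0.19, limma adjusted p = 0.0018). Only about 37 and 33 Control reads, and 17.5 and 10.5 siSIRT1 reads, stood behind it, and its log2 fold change ran from -1.50 to -0.85 when 1 library was left out.

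MT1F (Entrez gene 4494, chromosome 16, 56691871 to 56693215, plus strand) was the lowest member tested. Values of 1.27 and 2.31 FPKM (Control) overlapped those of 1.04 and 1.92 FPKM (siSIRT1). The log2 fold change was -0.17 with a 95% confidence interval from -0.68 to 0.34 (limma adjusted p = 0.598), an interval wide enough to hold the change of MT1G. With about 3.9 and 7.3 Control reads and 3.1 and 6.0 siSIRT1 reads, no difference was detectable at this depth.

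MT1H (Entrez gene 4496, chromosome 16, 56703726 to 56705041, plus strand) had Control values of 0.32 and 0 FPKM beside siSIRT1 values of 1.18 and 0.98 FPKM. MT1M (Entrez gene 4499, chromosome 16, 56666571 to 56667893, plus strand) was seen in a single library, Control replicate 2, at 0.73 FPKM, and listed at 0 in the other 3. Both genes had a mean under 1 FPKM and were left out of the test. The limit that a count of 0 allows, taken as 3 reads, is 1.03 to 1.09 FPKM for transcripts of this length. The highest values, 3.3 reads for MT1H and 2.1 reads for MT1M, lie close to or under it, so no fold is given. MT1B, the other type 1 gene listed in the tables, was at 0 in all 4 libraries.

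MTF1 (Entrez gene 4520, GRCh37 chromosome 1, 38275246 to 38325264, minus strand, 11 exons) gave 6.33 and 5.37 FPKM as Control values against siSIRT1 values of 5.02 and 5.54 FPKM. The groups overlapped, since the higher siSIRT1 value exceeded the lower Control value. With means of 5.85 ± 0.679 and 5.28 ± 0.368 FPKM (SD, n = 2 each), the log2 fold change was -0.12 and had a 95% confidence interval from -0.40 to 0.15 (limma adjusted p = 0.458). Between 343 and 445 reads per library stood behind MTF1. The interval leaves room for a modest change in either direction. MTF1 protein, its zinc binding and its place in the cell were not measured.

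**Figure D2:**
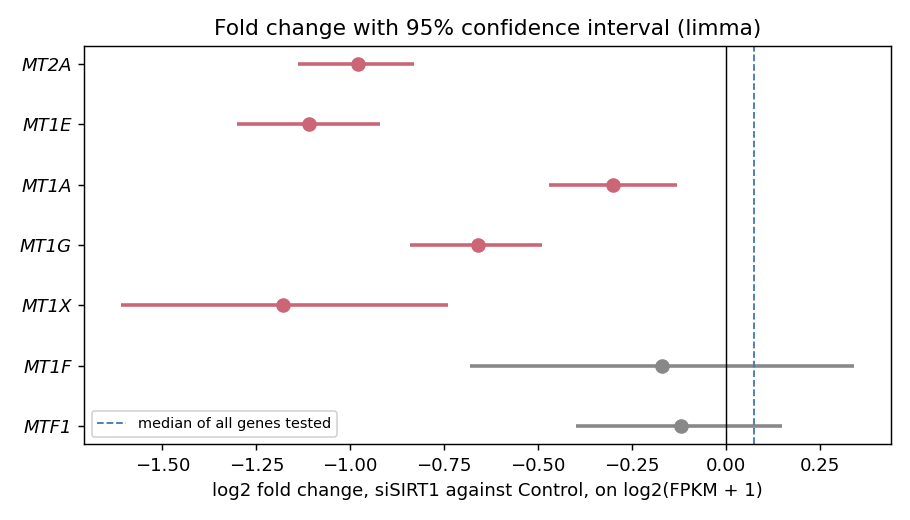
log2 fold change of siSIRT1 against Control on the log2(FPKM + 1) scale for the 7 members tested, with 95% confidence intervals from limma, red for an adjusted p under 0.05 and grey otherwise, and a dashed line at the median of all genes tested (0.07). The intervals of MT2A, MT1E, MT1A, MT1G and MT1X lie below 0, and those of MT1F and MTF1 cross it.

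By level in Control, the order was MT2A, MT1E, MT1A, MT1G, MT1X, MTF1 and MT1F, and no neighbours in that order overlapped between libraries. In siSIRT1, MT2A stayed the highest and MT1E, MT1A and MT1G followed without overlap, but MT1X at 3.60 to 6.22 FPKM overlapped MTF1 at 5.02 to 5.54 FPKM, and MT1F overlapped MT1H. Of the 7 members tested, 5 had both siSIRT1 libraries below both Control libraries, beside 25.2% of all genes tested.

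The sum of the 8 metallothionein genes depends less on how reads are split among these copies than the single values do, although FPKM divides by length and the MT1E model is longer than the others. Control libraries summed to 1072 and 1068 FPKM, and siSIRT1 libraries to 571.3 and 528.8 FPKM. The mean sum was 1069.7 ± 2.9 FPKM before and 550.1 ± 30.1 FPKM after knockdown (SD, n = 2 each), which is 51.4% of Control. MT2A made up 84.9% and 83.5% of the sum in Control and 82.6% and 82.8% in siSIRT1, so the sum is mostly a reading of MT2A. Without MT2A, the 7 MT1 genes summed to 169 ± 10.5 and 95.1 ± 6.12 FPKM (SD, n = 2 each), or 56.3% of Control. Within the sum, MT1A held 3.59% and 3.55% in Control against 5.69% and 5.52% in siSIRT1, and MT1G held 2.07% and 2.17% against 2.50% and 2.57%, both higher without overlap. MT1E held 8.06% and 9.47% in Control against 7.74% and 7.84% in siSIRT1. As a part of all FPKM in a library, the metallothionein sum went from 0.266% and 0.269% to 0.134% and 0.129%.

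Similar copies limit how far the members can be told apart. Of the windows of 50 bases in the MT2A transcript, 88.9% occurred in no other gene of GENCODE, and 62.8% were still free of a match when 2 mismatches to other metallothionein genes and pseudogenes were allowed. For MT1E the shares were 94.7% and 69.3%, for MT1A 94.2% and 64.0%, and for MT1G 80.1% and 64.0%. MT1X was the least unique, at 49.0% and 40.8%, and the genes that share its windows include an overlapping noncoding RNA gene (ENSG00000259827), the pseudogene MT1XP1, MT1G and MT2A. With windows of 100 bases and no mismatch, the MT2A, MT1E, MT1A and MT1G transcripts were unique throughout. MT1X reached 78.0% and shared windows with ENSG00000259827 alone. When 2 mismatches were allowed at 100 bases, the shares were 81.5% for MT2A, 96.0% for MT1E, 93.9% for MT1G and 64.6% for MT1X. The read length and the rule for reads that match several genes are not given in the sources used here. The separate values of the copies, those of MT1X first, are therefore less certain than their sum. Sharing with genes outside that sum, such as ENSG00000259827, is not removed by summing.

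The metallothionein transcripts are also short. Apart from MT1E, the tested metallothionein genes had transcripts of 300 bases or more but under 500, as did 80 of the genes tested, and the median log2 fold change of that class was 0.20. In this class 14 genes were lower in siSIRT1 (17.5%) and 31 were higher (38.8%), and MT2A, MT1A, MT1G and MT1X were 4 of the 14. Across classes of growing length the median fell from 0.20 to -0.01 for transcripts of at least 8000 bases, so short transcripts as a group sat slightly higher in siSIRT1. Removing each library's trend on length gave log2 fold changes of -1.33 for MT2A, -1.37 for MT1E, -0.65 for MT1A, -1.01 for MT1G and -1.52 for MT1X, each further from 0 than the unadjusted value. For MT1A and MT1G this moved the value by more than 1.5 times. The trend was fitted to the levels in each library, not to fold changes, and moved each of these genes by more than 0.20. Whether the adjusted values lie nearer to the true changes was not tested.

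**Figure D3:**
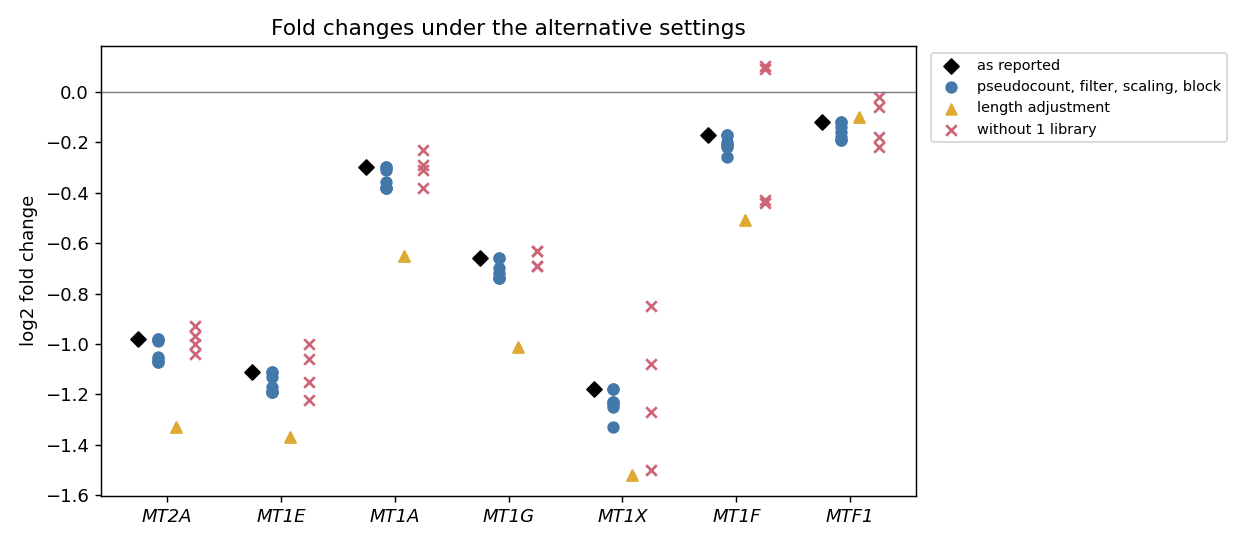
log2 fold change of each tested member as reported (diamonds), under other pseudocounts, filters, scalings and the replicate block (circles), after length adjustment (triangles) and with 1 library left out (crosses). MT2A, MT1E, MT1A, MT1G and MT1X stay below 0 under every setting shown, and MT1F reaches 0.10 without 1 Control library.

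Other genes of metal handling did not move in 1 direction. Among 42 genes tested from lists of zinc exporters, zinc importers, copper handling genes and metal and redox response genes, 11 were lower and 9 higher in siSIRT1, together 47.6%, beside the 37.1% of all genes tested, with a median log2 fold change of -0.04. SLC30A1, the exporter induced by MTF1, had Control levels of 36.5 and 35.4 FPKM and siSIRT1 levels of 16.99 and 27.1 FPKM. Its siSIRT1 libraries were both lower but far apart from each other. The log2 fold change was -0.72 (standard error 0.17, limma adjusted p = 0.0109), and with no filter on low values the adjusted p was 0.0974. The value was -0.39 without siSIRT1 replicate 1 and -1.04 without siSIRT1 replicate 2. Of the 6 zinc exporters tested, SLC30A1 alone passed (16.7%, beside 37.1% of all genes tested), and the list's median was -0.15.

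Of 10 zinc importers tested, 4 were lower and 1 was higher, with a median of -0.06. SLC39A10, an importer of the plasma membrane, went from 11.8 and 14.6 FPKM to 3.45 and 3.92 FPKM, and its log2 fold change of -1.60 (standard error 0.12, limma adjusted p = 5.46e-05) was further from 0 than that of any metallothionein gene. SLC39A11, SLC39A1 and SLC39A7, which releases zinc from the secretory pathway, changed by -0.56, -0.37 and -0.34 on the log2 scale. SLC39A7 lost its call with no filter on low values (limma adjusted p = 0.0556) and, at -0.32, without Control replicate 2. SLC39A14, an importer of zinc and iron, changed by 0.26. Its call was lost under each of 4 scalings between libraries, with values from 0.18 to 0.20, and with no filter on low values. The call was also lost without siSIRT1 replicate 2, at 0.16, without Control replicate 1, at 0.29, and without Control replicate 2, at 0.23. Of 13 copper handling genes tested, 7 were higher and 0 lower (53.8% called, median 0.23), beside 24.0% higher and 13.1% lower of all genes tested. Among tested genes with short transcripts the share higher was larger, at 38.8% from 300 to under 500 bases and 42.9% from 500 to under 1000 bases. Over the 4 lists together, the 9 higher calls became 7 under each of the 4 scalings between libraries. The higher copper handling genes included the copper chaperones COX17 at 0.73 and ATOX1 at 0.57 on the log2 scale, with transcripts of 426 and 471 bases. SCO2, a cytochrome oxidase assembly factor of 984 bases, changed by 0.56. The copper exporter ATP7B changed by 0.47, and its call was lost without Control replicate 1. SCO1, at 0.23, lost its call after median-of-ratios scaling (limma adjusted p = 0.166) and without Control replicate 1. Transcripts of COMMD1 and SOD1 have 695 and 895 bases. COMMD1 at 0.39 and SOD1, the copper and zinc superoxide dismutase, at 0.29 lost their calls after length adjustment, at 0.12 and 0.07. The same adjustment took COX17 to 0.39, ATOX1 to 0.24 and SCO2 to 0.35, each still past the threshold. Without Control replicate 2, COMMD1 lost its call at 0.33 and SOD1 at 0.29. SOD1 also lost it without Control replicate 1, at 0.29.

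Among 13 metal and redox response genes, 6 were lower and 1 was higher (53.8% called, median -0.05). Of all genes tested, 13.1% were lower and 24.0% higher. SLC7A11, the cystine importer that supplies cysteine for glutathione, dropped from 9.92 and 10.9 FPKM to 2.94 and 4.29 FPKM (log2 fold change -1.32, limma adjusted p = 0.000307). CTH, which makes cysteine from cystathionine, changed by -0.97 (limma adjusted p = 0.000663). GCLM, a subunit of the enzyme that starts glutathione synthesis, TXNRD1, a thioredoxin reductase, and NQO1, a quinone reductase, changed by -0.29, -0.22 and -0.21. The calls of all 3 were lost without Control replicate 1 and without Control replicate 2. GCLM, near the threshold (limma adjusted p = 0.0496), also lost its call without either siSIRT1 replicate, at -0.30 and -0.28. TXNRD1 also lost it without siSIRT1 replicate 1, at -0.16. With no filter on low values, GCLM (0.0724) and TXNRD1 (0.0682) did not pass either. The member that was higher was the heat shock gene HSPA1B at 0.32, which shares reads with its near-identical copy HSPA1A and is uncertain for that reason; its call was also lost without Control replicate 2.

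**Figure D4:**
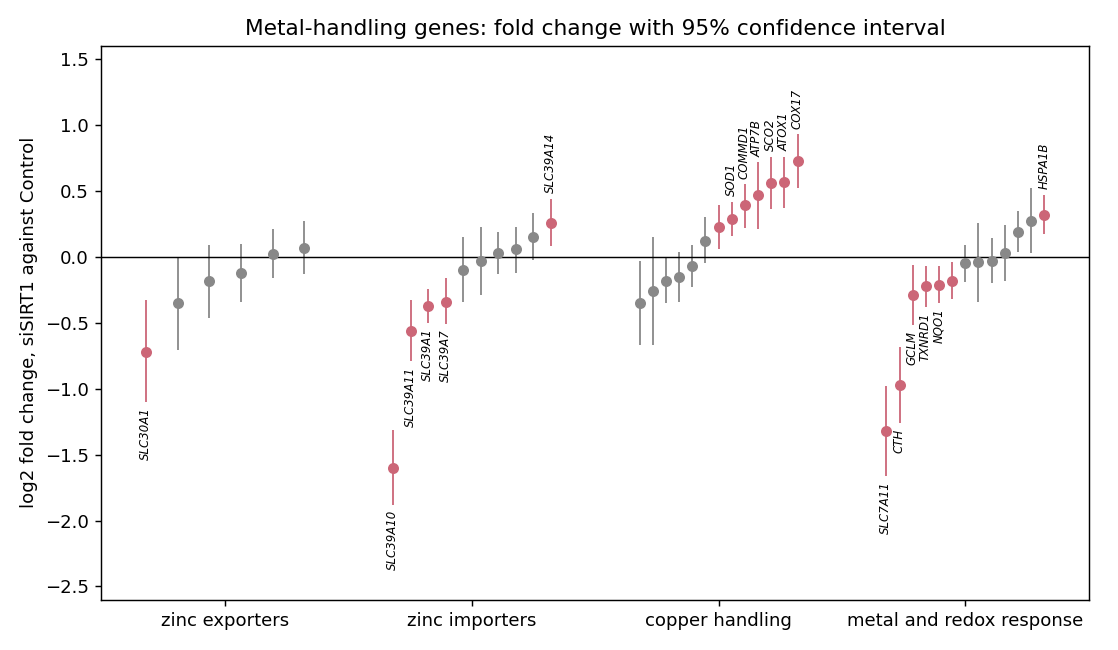
log2 fold change of siSIRT1 against Control for every tested gene of the lists of zinc exporters, zinc importers, copper handling genes and metal and redox response genes, with 1 point per gene, its 95% confidence interval as a line, and red where the limma adjusted p is under 0.05. SLC39A10 at -1.60 and SLC7A11 at -1.32 lie lowest, and the 7 copper handling genes that passed all lie above 0.

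Over the 4 libraries, the gene whose pattern lay nearest to that of MT2A was CLDN4, which encodes a tight junction protein, with 232.4 and 232.5 FPKM as Control values beside 118.5 and 111.7 FPKM as siSIRT1 values. Its distance, Euclidean on log2(FPKM + 1) after each gene's mean was subtracted, was 0.036, and CD99L2 and TMEM164 followed at 0.050 and 0.054. For MTF1 the nearest were KHDRBS3, AGTPBP1 and MTRR at 0.027, 0.028 and 0.033. With 4 libraries in 2 groups, such a likeness says little beyond the difference between the groups.

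Genes around the metallothionein cluster were also read. Within 500 kb of the cluster, a window chosen after the values were seen, 11 other genes were listed and 9 were tested, of which 1 was lower, 3 were higher and 5 did not pass. With 13.1% lower and 24.0% higher among all genes tested, these counts are near the background. BBS2, a gene of the primary cilium, changed by -0.38, while GNAO1, NUDT21 and CPNE2 changed by 0.40, 0.30 and 0.56 on the log2 scale. The call of BBS2 was lost with no filter on low values (limma adjusted p = 0.0722) and without Control replicate 2 (0.203), that of NUDT21 with equal sums scaling (0.129) and without Control replicate 1 (0.211), and that of GNAO1 without Control replicate 1 (0.118). Their median of 0.07 was that of all genes tested, and MT2A, MT1E, MT1G and MT1X lay below the lowest of the 9.

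**Figure D5:**
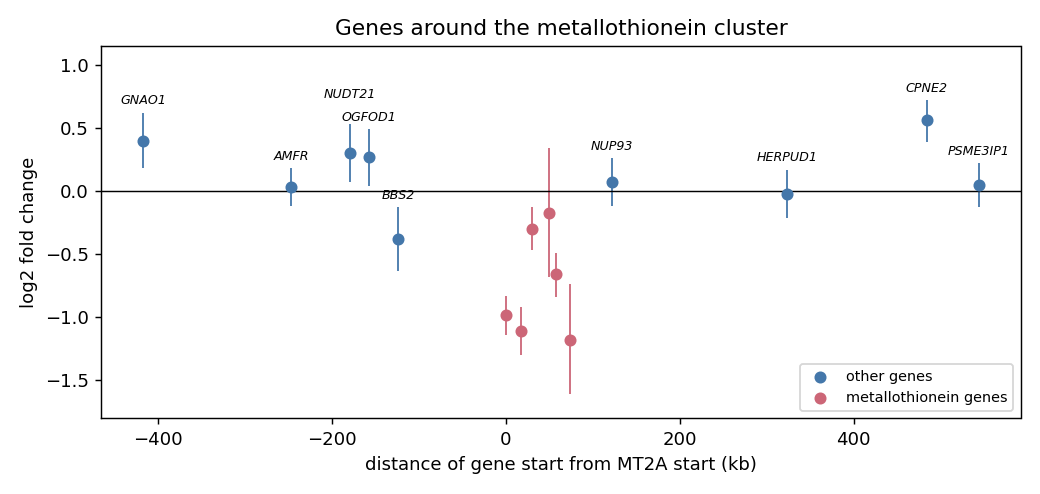
log2 fold change with 95% confidence interval (limma) of the metallothionein genes tested (red) and of the other genes tested within 500 kb (blue), against the distance of each gene's start from that of MT2A in kb. MT2A, MT1E, MT1G and MT1X lie below every other gene plotted, whose values run from -0.38 to 0.56.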

How the data were processed

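RNA-seq covered 4 libraries of PANC-1 cells, 2 Control and 2 siSIRT1, grouped by their titles. The authors deposited 1 table of FPKM values per library. The submitters' processing notes name Bowtie2, HISAT, RSEM and ChIPseeker without roles or versions, and the genome build is not given in the sources used here. FPKM divides by the library total, so a few abundant genes can move all others. Identifiers were matched to RefSeq symbols for 16846 of 16878 genes. The deposited values are not counts, so limma (version 3.58.1, R 4.3.3; lmFit, eBayes with trend) was run on log2(FPKM + 1) for 12191 genes that averaged 1 FPKM or more. Tests were two-sided with Benjamini-Hochberg adjustment over all genes tested and a threshold of 0.05. Fold changes on this scale understate the change of low genes.

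Depth was estimated from steps of 1 read in the low values of single-exon genes, with a length offset of 80 bases. On 81 to 99 genes per library the step score was 0.499 to 0.641, against 0.176 to 0.384 for jittered values, so reads per gene are approximate. Floors of 3 reads cover counting error only, while the limma intervals reflect the spread between these libraries. Coordinates, lengths and coding sequences came from GENCODE release 44 mapped to GRCh37. For MT1E the listed model of 704 bases was used, since the canonical one retains an intron. Coordinates of promoters are those of GRCh38.p14. The members and lists were chosen with earlier results of these data known. Named genes were every member and listed family gene, SIRT1, SLC30A1, at most the 6 largest called changes of each list, and the 3 nearest patterns of MT2A and MTF1. Neighbouring genes, SLC39A8, SCO1, DNAJB1 and HSPA1A were added after values were seen. Alternatives were a pseudocount of 0.1, no filter, 4 scalings, length adjustment, the replicate block and leaving out each library.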

Additional observations from a re-analysis of the deposited data

How the results depend on the processing

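MT2A, MT1E, MT1G and MT1X stayed lower and past the threshold under every alternative run, and MT1A lost its call without Control replicate 1 and without Control replicate 2. Their largest adjusted p outside the fits that left out a library, 0.00608, 0.00792, 0.00884, 0.0386 and 0.0452 in the order MT2A, MT1E, MT1G, MT1X and MT1A, came with no filter on low values (limma). That setting also called 6 members in place of 5, since MT1H, at 3.3 reads or fewer per library, passed in the higher direction. MT1F changed sign, to 0.10 without Control replicate 2 and to 0.09 without siSIRT1 replicate 1, in a range from -0.44 to 0.10 with 1 library left out. Members called ran from 4 to 5 with 1 library left out. The log2 ratio of the metallothionein sum was -0.96, and it was -1.05 after quantile normalization, -1.04 after median-of-ratios scaling and -0.83 without MT2A. Of all genes tested, 4521 passed, with 64.8% of the calls higher. With 1 library left out the number ran from 2691 to 4608, at 2744 without Control replicate 1 and 2691 without Control replicate 2. Scaling between libraries or length adjustment left 49.3% to 55.6% of the calls higher, and the cause was not tested. Of 20 metal-handling genes called, 10 to 21 were called with 1 library left out, at 12 without Control replicate 1 and 10 without Control replicate 2.

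Control and siSIRT1 titles share the replicate numbers 1 and 2, but nothing says that a number marks a shared batch, and the 2 pairs are too few to tell. Same-numbered deviations correlated at 0.123 across 12191 genes, which are not independent. With the replicate block 5393 genes and the same number of members, 5, passed, as did 23 metal-handling genes. Length adjustment with the block called 6 members, MT1F among them at -0.51 (limma adjusted p = 0.0135, and 0.0135 to 0.702 over the settings that kept all 4 libraries).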
